A study of Arabidopsis thaliana with 16 samples.

Results

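Phosphate enters plant roots through proton-coupled transporters of the PHT1 family, which sit in the plasma membrane. Arabidopsis thaliana has 9 PHT1 genes. Their proteins leave the endoplasmic reticulum with the help of PHF1, a protein of that compartment related to the coat factor SEC12. The 9 PHT1 genes and PHF1 were picked by locus identifier, which gave 10 of the 32678 loci counted in every library, and each of the 10 had 1 row in each library. Phosphate taken up by the root is loaded into the xylem by the exporter PHO1 and travels to the shoot. When phosphate is short, the transcription factor PHR1 binds an element called P1BS in the promoters of many responsive genes, while PHO2 and NLA direct PHT1 proteins to degradation. Counts of transcripts do not show how much transporter protein reached the membrane.

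Stranded mRNA libraries came from total RNA of roots and of leaves. The plants were untreated, aged 25 days, and grown on Oil-Dri pellets with Hoagland solution. Every plant carried the pho1-4 allele. The 4 genotypes were the mutant itself (KO), the mutant complemented with the PHO1 gene (Compl), and lines 32 and 34 of the mutant, which express only the EXS domain of PHO1, as a GFP fusion (EXS32 and EXS34). The labels do not name the promoter of either transgene. Each genotype had 2 libraries per organ, 16 libraries in 8 groups, and the labels do not say whether the 2 came from separate plants. P-values therefore measure the spread between these libraries, which may be technical.

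For the 8 leaf libraries the sample labels and the file names disagree on the genotype. The libraries labelled KO have files named for the complemented line, those labelled Compl have files named EXS32, those labelled EXS32 have files named EXS34, and those labelled EXS34 have files named for pho1-4. Leaf groups are called by their labels unless said otherwise, and the file names are added where leaf groups are first compared with each other. Comparisons that tie a leaf group to a root group are given under both namings. A pair of leaf groups holds the same libraries under either naming, so a difference within leaves keeps its value and only its name is in doubt. Over 15 phosphate starvation markers, the summed level in roots was lowest in Compl (872 and 774 read counts scaled to the library's total in genes, CPM) and highest in KO (1532 and 2190 CPM). In leaves the same sum was lowest in the libraries labelled KO (333 and 348 CPM) and highest in those labelled EXS34 (3545 and 2151 CPM).

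Depth, as reads in genes, ran from 20139794 to 31405117 in the 8 root libraries and from 9465995 to 15530134 in the 8 leaf libraries. Transcript markers of roots summed to 384 to 731 CPM in roots and at most 1.45 CPM in leaves, and markers of leaves to at least 27724 CPM in leaves and at most 99.02 CPM in roots. PHO1 itself stood at 2118 ± 185 CPM (SD, n = 2) in KO roots and 2525 ± 507 CPM in Compl roots. Reads of the mutant transcript and of a transgene are counted together at this locus, so its level is no check of the labels. Among root libraries Compl replicate 1 lay farthest from the rest: its score on principal component 1 was 51.5, that of Compl replicate 2 was 25.02 and those of the remaining 6 ran from -35.3 to 9.22. For calls of members between root groups, values without it are given where the call was lost without it. The mean of both EXS lines was not refitted without it. For interactions and for genes of other lists such values are not given. Log2 fold changes below carry their standard error, and each adjusted p is from the quasi-likelihood test of edgeR with Benjamini-Hochberg adjustment over all genes tested. A difference is called when its adjusted p is under 0.05.

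Coordinates are those of RefSeq's TAIR10.1 annotation, 1-based. A cluster on chromosome 5 holds, in order, PHT1;6 (AT5G43340, 17393598 to 17395148, minus strand), PHT1;1 (AT5G43350, 17399769 to 17402158, minus), PHT1;3 (AT5G43360, 17409524 to 17411214, plus) and PHT1;2 (AT5G43370, 17415698 to 17417972, plus). On chromosome 2 lie PHT1;5 (AT2G32830, 13927606 to 13929763, minus) and PHT1;4 (AT2G38940, 16257157 to 16260253, plus). On chromosome 1 lie PHT1;8 (AT1G20860, 7253998 to 7258952, minus) and PHT1;9 (AT1G76430, 28678935 to 28682062, minus). On chromosome 3 lie PHT1;7 (AT3G54700, 20248214 to 20250948, minus) and PHF1 (AT3G52190, 19353867 to 19357261, minus). None of the 10 overlaps another annotated gene.

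AT5G43350 and AT5G43370 share 98.9% of 524 aligned residues and 97.7% of 1575 coding bases. Of all 50-base windows within exons of the former, 57.5% occur once in the genome, against 54.3% for the latter, 98.6% for AT5G43360 between them and 100% for the other 7 genes. Reads that align to several places were not counted for any gene, so the levels of these near-identical copies are lowered and uncertain. AT1G20860 and AT1G76430 form a branch of their own: they share 69.2% of their residues with each other and 42.9 to 47.6% with the other 7 transporters.

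In windows of 250 bases before to 50 after the annotated start, read from the RefSeq TAIR10.1 genome, P1BS (GNATATNC, searched on both strands, which read alike) occurred once in the promoters of PHT1;2, 42 bases before the start, of PHT1;4, 7 bases before it, and of PHT1;7, 124 bases before it. The other 7 windows held no match. Of all 27443 promoters of the same length 1716 (6.25%) held a match. The stretches from 150 bases before to 20 after the start are printed 5′ to 3′ for these 3 genes, which carry the element, and for the gene with the largest called difference in roots, which has none in the window. Capitals mark the P1BS match.
PHT1;2, chr5:17415548-17415717, plus strand: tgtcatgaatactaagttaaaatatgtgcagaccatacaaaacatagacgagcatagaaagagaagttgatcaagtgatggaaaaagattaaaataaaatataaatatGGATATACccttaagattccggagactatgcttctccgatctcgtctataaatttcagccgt
PHT1;4, chr2:16257007-16257176, plus strand: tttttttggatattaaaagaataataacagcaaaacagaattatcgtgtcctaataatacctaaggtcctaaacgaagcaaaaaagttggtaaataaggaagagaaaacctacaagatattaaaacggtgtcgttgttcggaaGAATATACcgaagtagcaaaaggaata
PHT1;7, chr3:20250929-20251098, minus strand: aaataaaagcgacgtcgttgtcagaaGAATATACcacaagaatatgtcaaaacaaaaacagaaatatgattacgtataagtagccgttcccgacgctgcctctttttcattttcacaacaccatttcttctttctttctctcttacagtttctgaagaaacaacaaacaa
PHT1;8, chr1:7258933-7259102, minus strand: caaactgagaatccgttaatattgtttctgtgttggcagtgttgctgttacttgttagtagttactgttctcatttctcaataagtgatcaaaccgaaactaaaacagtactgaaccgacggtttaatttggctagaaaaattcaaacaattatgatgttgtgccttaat

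The core of the W-box, the element bound by WRKY factors (TTGAC, either strand), occurred in 6 of the 10 windows, against 50.5% of all promoters. Its first base was found 203 bases before the start of AT2G38940, whose P1BS match is the one nearest to a start, 162 and 105 before that of AT3G54700, 222 and 14 before that of PHF1, and 95 and 70 before and 7 after that of AT2G32830. The remaining matches lay 37 bases after the start of AT5G43340, and 3 before and 3 after that of AT1G76430. The annotated start of AT5G43360 and of AT5G43340 is the start codon, so their windows lie partly within transcribed sequence. A match of these letters is a description and was not tested for binding.

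The root was the main site of PHT1 transcripts. Summed over the 9 transporters, the level was 402 to 818 CPM in the 8 root libraries and 9.36 to 78.3 CPM in leaves. Counting all libraries, roots held 103520 reads of the family at a depth of 196710087 reads, and leaves 2506 at 94315548. Of the family's reads in roots 58.9% belonged to PHT1;1, 23.2% to PHT1;3, 9.50% to AT5G43370 and 6.51% to AT2G38940, while in leaves 78.8% belonged to AT2G38940 and 10.2% to AT5G43350. Reads that align to several places are left out, so the shares of the near-identical AT5G43350 and AT5G43370 are lowered. The 2 leaf libraries labelled EXS34 held 1447 of the 2506 leaf reads. By library the share of AT2G38940 in leaves ran from 51.7 to 92.0% and that of AT5G43350 from 2.80 to 34.6%. In replicate 2 of the leaf groups labelled EXS32 and EXS34, AT5G43350 had 7 and 15 reads, fewer than the 9 and 23 of AT2G32830. Fewer cells that express a gene and less RNA per cell cannot be told apart in such libraries. The products of PHT1;1 and AT2G38940 are known as the main uptake carriers of the root.

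**Figure D1:**
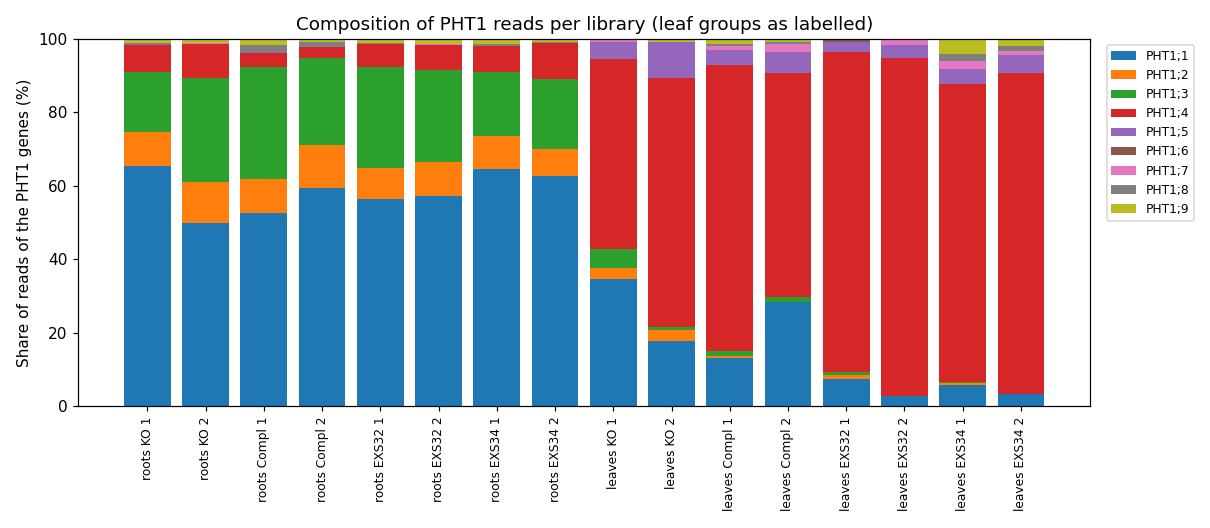
Share of each PHT1 gene in all PHT1 reads of a library (percent, stacked bars), for 8 root and 8 leaf libraries with leaf groups as labelled. PHT1;1 holds 49.9 to 65.4% in roots and PHT1;4 holds 51.7 to 92.0% in leaves.

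Per transcript length, as CPM per kilobase (RPKM), the mean level in roots was highest for PHT1;1 (156 ± 41.9 RPKM, SD, n = 8), then AT5G43360 (79.6 ± 24.2). PHF1 (36.2 ± 4.07), AT5G43370 (27.1 ± 9.79) and AT2G38940 (16.7 ± 4.51) followed. The remaining transporters were AT1G76430 (3.14 ± 0.829), AT1G20860 (1.77 ± 2.13), AT2G32830 (0.485 ± 0.378) and AT3G54700 (0.146 ± 0.141). These SDs span the 4 genotypes. The lowest library of the leading gene (99.7 RPKM) lay below the highest of the next (124 RPKM). PHF1 overlapped AT5G43370, and AT5G43370 overlapped AT2G38940. RPKM divides by the whole transcript, yet 54.3% of the 50-base windows of AT5G43370 and 57.5% of those of PHT1;1 are unique. For PHF1 the share is 100%. The levels of these 2 copies are lowered by reads not counted, so the order of AT5G43370 and PHF1 is not settled. Libraries did not overlap between AT5G43360 and PHF1, or between AT2G38940 and AT1G76430. In leaves PHF1 (12.6 ± 9.11 RPKM) and AT2G38940 (10.7 ± 10.3) led, with means closer than their spread, and PHT1;1 came next with 1.29 ± 0.891 RPKM.

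**Figure D2:**
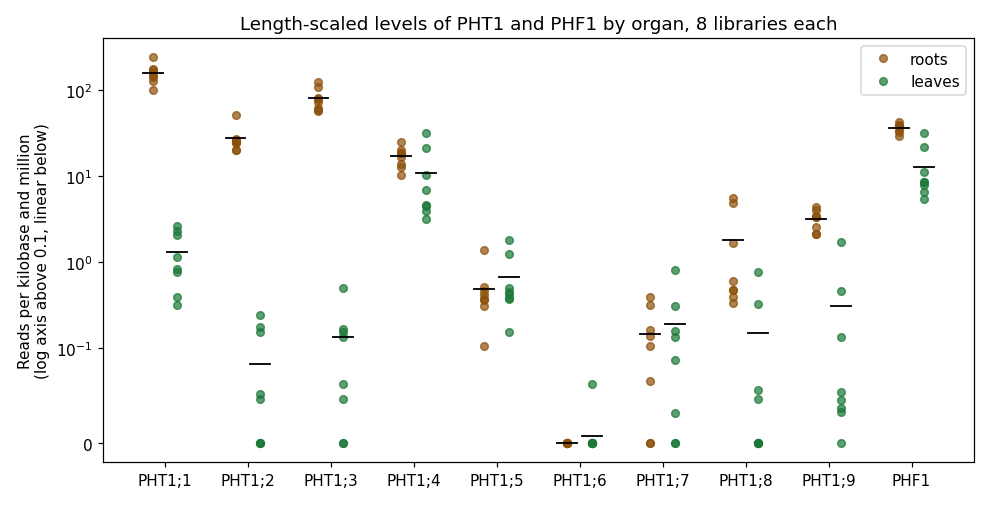
Length-scaled levels (RPKM, log axis above 0.1 and linear below) of the 10 genes in 8 root (brown) and 8 leaf (green) libraries, with black bars for the mean. Roots and leaves are apart for PHT1;1, PHT1;2 and PHT1;3 and overlap for PHT1;4 and PHT1;5.

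Averaged over the 4 groups of each organ, 8 of the 9 members that passed the filter on low counts were called between roots and leaves, 7 of them higher in roots and 1 lower. Of 21351 genes tested 81.6% were called and 43.1% were higher in roots, and the lower call stands beside 38.4%. The median of all genes moved from 0.06 to 0.62 on the log2 scale when library size was the sole scaling, so shifts of this size depend on the scaling. AT5G43370 reached the level of the filter (0.5607 CPM) in 8 root and 0 leaf libraries, and AT5G43360 in 8 root libraries and 1 leaf library, so both passed through the organ where they were high. The 3 members of the chromosome 5 cluster that were tested differed by more than the shift between scalings. PHT1;3 was 8.93 ± 0.22 higher in roots on the log2 scale (adjusted p = 7.94e-13), PHT1;2 8.15 ± 0.29 (adjusted p = 3.32e-11) and PHT1;1 6.57 ± 0.28 (adjusted p = 4.6e-10). Leaves held 22, 17 and 256 reads of these genes in all 8 libraries together, at a depth of 94315548 reads. Roots held 23970, 9835 and 60968 at 196710087, and the leaf levels ran from 0 to 0.773 CPM for AT5G43360 and from 0.624 to 5.22 CPM for AT5G43350.

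The other members higher in roots were PHT1;9 (4.37 ± 0.37, adjusted p = 1.59e-07), PHT1;8 (4.96 ± 0.60, adjusted p = 1.66e-05), PHF1 (1.21 ± 0.09, adjusted p = 3.41e-08) and PHT1;4 (0.48 ± 0.16, adjusted p = 0.0169). The first 2 of these fitted values average over leaf groups with few reads. Leaf levels of PHF1 reached 56.5 CPM, above its lowest root library (52.4 CPM). Those of PHT1;4 reached 63.4 CPM in a library labelled EXS34, above its highest root library (48.96 CPM). The fitted value of PHT1;4 is of the size of the shift between scalings and ran from 0.37 to 1.04 over 22 other settings. By summed reads AT1G76430 was 9.99 times higher in roots (1188 against 57 reads, exact 95% interval 7.66 to 13.3 from counting error alone) and AT1G20860 10.9 times (591 against 26 reads, 7.36 to 16.8). The leaf library labelled EXS34 replicate 1 held 41 of the 57 and 18 of the 26 leaf reads. Without it, a choice made after seeing the data, the ratios were 30.9 (18.9 to 54.2) and 30.7 (15.5 to 71.5). PHT1;5, which is known to move phosphate between source and sink organs, was lower in roots (-0.84 ± 0.36, adjusted p = 0.0456), a call that was lost in 14 of 22 other settings. PHT1;7 had 60 root and 35 leaf reads (-1.02 ± 0.83, adjusted p = 0.27). PHT1;6, known for its expression in anthers, had 0 reads in roots, which at this depth allows up to 0.0153 CPM, and 1 read in leaves.

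**Figure D3:**
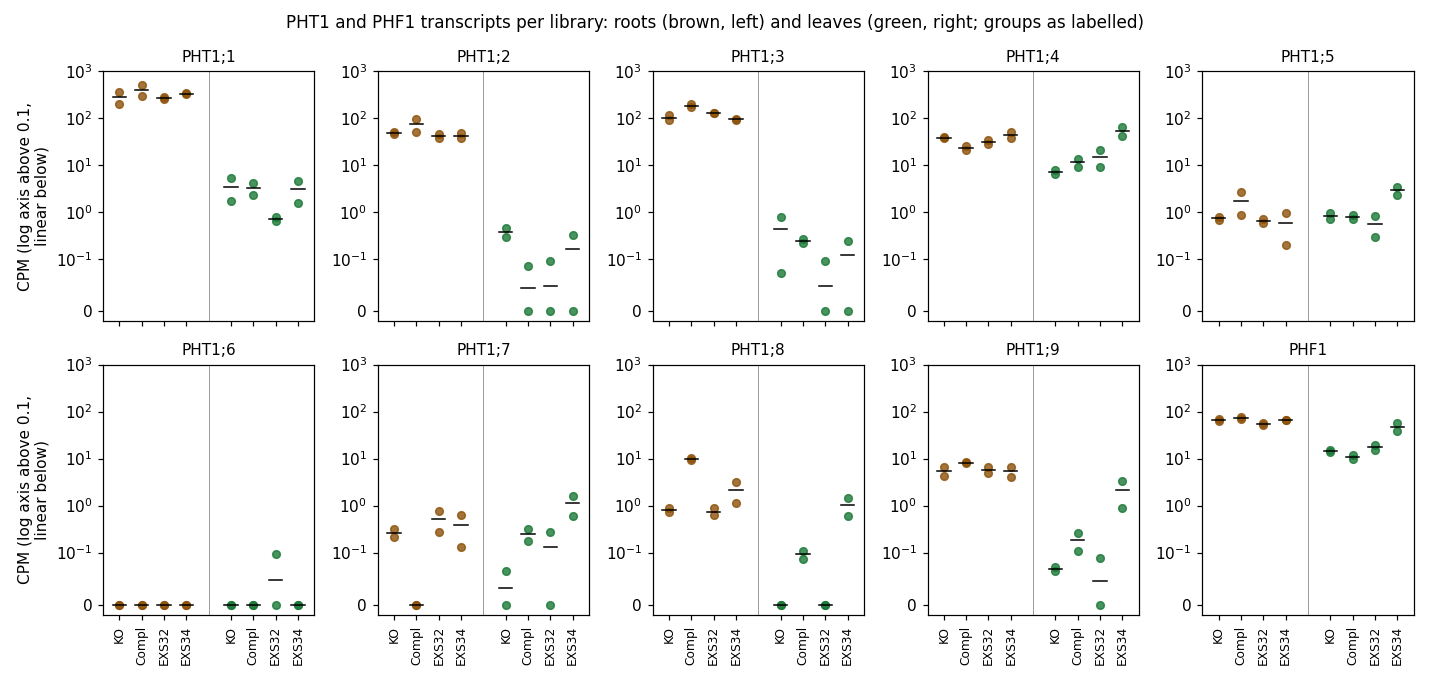
Level of each gene in every library (points, CPM, log axis above 0.1 and linear below) by group, with bars for the mean of 2 libraries, roots on the left in brown and leaves on the right in green as labelled. PHT1;8 is at 9.15 to 10.3 CPM in Compl roots and 0.618 to 3.11 CPM in the other root libraries. Leaf libraries labelled EXS34 (files named for pho1-4) are highest for PHF1 and PHT1;4.

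In roots the mutant and the EXS lines were compared with Compl and with each other. No wild type was among the libraries, and the part of the Compl line itself in these differences was not tested. Compared with Compl, transcripts of PHT1;8 and PHT1;3 were lower in the mutant and in EXS32, and PHF1 was lower in EXS32. KO against Compl called 2 of 9 members tested, both lower in KO, with 0.884% of 20597 genes called and 0.418% lower. EXS32 against Compl called 3 of 9, all lower in EXS32, with 12.4% of genes called and 7.27% lower. DESeq2 called 3 and 5 members in these comparisons, and limma-voom 2 and 4. Shares of all genes called are those of edgeR throughout. Shares for the other tools are not given, so their counts of members have no background beside them. EXS34 against Compl called 0 of 9, with 5 at an unadjusted p under 0.05, and 0.131% of genes called. There limma-voom called 0 members and DESeq2 called 3. Among the mutant and the EXS lines edgeR, DESeq2 and limma-voom each called 0 of 9 in every pair. At an unadjusted p under 0.05 stood 1 member for EXS32 against KO (0.126% of genes called), 1 for EXS34 against KO (0%) and 4 for EXS34 against EXS32 (0.908%).

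The largest difference was that of PHT1;8, a root transporter tied to phosphate transfer to the shoot. It had 207 and 201 reads in the Compl libraries (10.3 and 9.15 CPM), 25 and 23 in KO (0.880 and 0.732 CPM), 19 and 15 in EXS32 (0.876 and 0.618 CPM) and 72 and 29 in EXS34 (3.11 and 1.13 CPM). Both Compl libraries lay above the other 6, and both EXS34 libraries lay above those of KO and EXS32. The gene was lower in KO than in Compl by a log2 fold change of -3.66 ± 0.47 (adjusted p = 0.0326) and lower in EXS32 by -3.75 ± 0.48 (adjusted p = 0.00667). EXS34 was not called against Compl (-2.26 ± 0.43, adjusted p = 0.1) or against KO (1.40 ± 0.47, adjusted p = 0.494). The mean of both EXS lines was lower than Compl (-3.004 ± 0.36, adjusted p = 0.0108, with 6.31% of genes called and 4.04% lower). The KO call was lost when either KO library, either EXS32 library or Compl replicate 1 was left out (adjusted p from 0.071 to 0.197), and the EXS32 call when either EXS32 library was (0.0616 and 0.0864), while the KO log2 fold change stayed between -3.80 and -3.52 over 18 settings.

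Its neighbours on the chromosome were not called. XCP2, which encodes a xylem protease, lies 250 bases away on the opposite strand and stood at 124 and 102 CPM in KO roots and 173 and 138 in Compl (-0.53 ± 0.20, adjusted p = 0.202). AT1G20870, 70 bases away on the same strand, stood at 0.739 and 1.27 CPM in KO and 0.794 and 1.09 in Compl (0.02 ± 0.40, adjusted p = 0.983). The summed level of 7 xylem and secondary wall genes was highest in Compl roots, at 830 and 592 CPM, against 415 to 513 CPM in the other 6 libraries. That of 8 root hair genes was 699 and 564 CPM in Compl and 387 to 524 CPM elsewhere. Of these lists KO against Compl called 0 genes, and EXS32 against Compl called 6 of 7 xylem and 3 of 8 root hair genes, all lower. The part of these cells in the levels of the transporters was not tested.

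PHT1;3, a transporter of the same cluster whose windows are nearly all unique, showed a smaller difference. Its level was 167 and 194 CPM in Compl, 88.6 and 114 in KO, 123 and 124 in EXS32, and 91.1 and 95.2 in EXS34, so both Compl libraries again lay above the other 6. KO was lower than Compl (-0.91 ± 0.13, adjusted p = 0.0435), as were EXS32 (-0.59 ± 0.13, adjusted p = 0.0299) and the mean of both EXS lines (-0.80 ± 0.11, adjusted p = 0.0136). EXS34 stood at -1.01 ± 0.13 against Compl and just missed the threshold (adjusted p = 0.0545). The KO call was lost in 8 of 17 other settings (without Compl replicate 1, -0.98 and adjusted p = 0.0675) and the EXS32 call in 5 of 17, in both cases including each setting without an EXS32 library, with no change of sign.

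Its near-identical neighbours in the cluster varied more between libraries of a group. PHT1;1 stood at 288 and 486 CPM in Compl, 350.1 and 201 CPM in KO, 254 and 283 in EXS32, and 338 and 313 in EXS34. KO and Compl overlapped, and the log2 fold change of -0.56 ± 0.31 was not called (adjusted p = 0.361). PHT1;2 stood at 50.5 and 94.3 CPM in Compl against 49.04 and 44.8 in KO, 37.2 and 45.7 in EXS32 and 46.3 and 37.3 in EXS34. EdgeR did not call it in KO (-0.69 ± 0.27, adjusted p = 0.216), EXS32 (-0.85 ± 0.27, adjusted p = 0.0827) or EXS34 (-0.84 ± 0.27, adjusted p = 0.25) against Compl, but called it in EXS32 without Compl replicate 1 (-1.19, adjusted p = 0.0182). DESeq2 called it in EXS32 with all libraries. Counted as 1 feature, these 2 copies gave -0.58 ± 0.29 for KO against Compl (adjusted p = 0.323), so the sum did not give a call that the single copies missed.

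PHT1;4 lay on the other side of Compl. Its level was 20.3 and 25.3 CPM in Compl, 39.3 and 36.8 in KO, 27.6 and 33.2 in EXS32, and 36.5 and 48.96 in EXS34, with both Compl libraries below the other 6. The log2 fold changes against Compl were 0.67 ± 0.17 for KO (adjusted p = 0.111), 0.37 ± 0.17 for EXS32 (adjusted p = 0.206) and 0.85 ± 0.17 for EXS34 (adjusted p = 0.113), none of them called by edgeR. DESeq2 called the gene in KO and in EXS34. Summed leaf markers stood at 77.6 and 99.02 CPM in the EXS34 roots and at 18.7 to 46.3 CPM in the other 6 root libraries, and the part of leaf RNA in the EXS34 root levels was not tested. AT3G54700, its closest relative with 87.8% identical residues, had 0 reads in both Compl libraries and 16 in KO, 25 in EXS32 and 19 in EXS34 over 2 libraries each. With a floor of 3 reads over the Compl group, these were at least 3.75, 7.63 and 5.47 times higher, and edgeR called none of the 3 comparisons (adjusted p from 0.0629 to 0.254). DESeq2 and limma-voom called the one with EXS32 (adjusted p = 0.0148 and 0.0424). This gene reached the level of the filter (0.4216 CPM) in 1 library each of EXS32 and EXS34 and in none of KO or Compl. It passed through groups where it was high, so these calls say little.

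**Figure D4:**
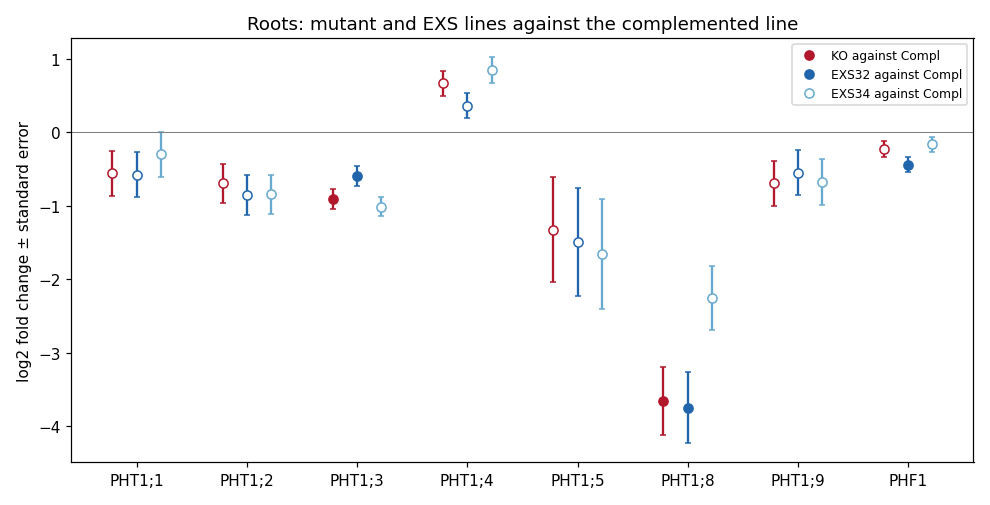
Log2 fold changes in roots of KO, EXS32 and EXS34 against Compl, with standard errors, filled where the adjusted p was under 0.05. PHT1;6 (0 reads) and PHT1;7 (0 reads in Compl) are not drawn, and PHT1;4 is the one gene drawn above 0.

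PHF1 stood between 52.4 and 75.9 CPM in every root library. Its level was 69.0 and 75.9 CPM in Compl, 68.6 and 61.7 in KO, 52.4 and 58.4 in EXS32, and 67.7 and 67.2 in EXS34. EXS32 was lower than Compl (-0.44 ± 0.10, adjusted p = 0.0361), a call that was lost in 12 of 18 other settings with the log2 fold change between -0.50 and -0.34. Without Compl replicate 1 it was -0.46 (adjusted p = 0.0736). The last 2 transporters tested were not called in any root pair. PHT1;9 stood at 8.54 and 7.87 CPM in Compl and 4.10 to 6.61 CPM in the other 6 libraries (KO against Compl -0.69 ± 0.31, adjusted p = 0.267). PHT1;5 stood at 2.58 and 0.865 CPM in Compl and 0.195 to 0.95 CPM elsewhere.

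Over the 8 root libraries the genes closest to each called member, by Pearson's r of log2(CPM + 1), were listed without a test. For PHT1;8 they were LAC6 (r = 0.989), PHT3;2 (0.975) and HIPP25 (0.975), which encode a laccase, a mitochondrial phosphate carrier and a metal-binding protein. For AT5G43360 they were AT3G47180 (0.957), MEE34 (0.938) and AT5G02570 (0.931), and for PHF1 AT2G42760 (0.983), CM1 (0.969), a chorismate mutase gene, and ABCC10 (0.964). These libraries fall into 4 genotypes, which such correlations share.

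Other genes of the pathway moved in both directions in roots. Of 15 phosphate starvation markers 8 were higher in KO than in Compl and 0 lower, with a median log2 fold change of 1.61 against -0.01 for all genes. The 4 with the lowest adjusted p were PHO1;H1 (2.19 ± 0.20), SQD1 (1.61 ± 0.19), SPX1 (1.61 ± 0.23) and MGD3 (2.72 ± 0.42), which encode a PHO1 homologue, an enzyme of sulfolipid synthesis, a phosphate sensor and a galactolipid synthase. EXS32 against Compl called 9 higher and 1 lower, with a median of 1.14. EXS34 against Compl called 0 of 15 with a median of 0.95, and 0.131% of all genes were called there. Of 15 genes of transcriptional control 14 were tested: KO against Compl called SPX1 alone, and EXS32 against Compl called PHL3 (0.48 ± 0.10), SPX1 (0.98 ± 0.23) and SPX3 (3.01 ± 0.69) higher and WRKY6 (-0.82 ± 0.20) lower. PHR1 was called in none of the root pairs. Of 5 genes of PHT1 protein turnover and traffic, PHO2 was lower in EXS32 than in Compl (-2.34 ± 0.44, adjusted p = 0.02) and NLA (1.02 ± 0.16, adjusted p = 0.0115) and the kinase subunit gene CKB3 (0.44 ± 0.10, adjusted p = 0.0335) were higher. PHO2 and NLA both act on PHT1 proteins, and their transcripts moved in opposite directions.

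In leaves the libraries labelled EXS34, with files named for pho1-4, were called higher for PHF1 and PHT1;5 than each other group by edgeR. PHT1;9 was also higher than in each, and PHT1;4 than in the groups labelled KO and Compl. Only 5 of the 10 members passed the filter on low counts in leaves. Of these 5, the libraries labelled EXS34 were higher for 4 against those labelled KO, with files named for the complemented line (6.41% of 18548 genes called, 3.27% higher). They were higher for 4 against those labelled Compl, with files named EXS32 (18.3% called, 9.54% higher), and for 3 against those labelled EXS32, with files named EXS34 (5.69% called, 2.26% higher). No member was lower. PHT1;9 reached the level of the filter (0.8805 CPM) in the libraries labelled EXS34 alone, and PHT1;5 in these and 1 library labelled KO, so both passed through the group where they were high and their calls say little of the set. Of the other 3 (PHT1;1, PHT1;4 and PHF1), 2, 2 and 1 were called. With no filter, edgeR called PHT1;5 (adjusted p = 0.0286, 0.0162 and 0.0132) and PHT1;9 (0.00715, 0.0126 and 0.00955) against the groups labelled KO, Compl and EXS32. Summed leaf markers stood at 29934 and 27724 CPM in the libraries labelled EXS34 and at 30477 to 35034 CPM in the other 6, and their part in these differences was not tested. Among the other 3 groups edgeR called 0 of 5 members: labelled KO against Compl (21.1% of genes called) had 0 at an unadjusted p under 0.05, labelled EXS32 against KO (5.93%) had 1 and labelled EXS32 against Compl (14.8%) had 2. DESeq2 called 0, 2 and 1 members there, and limma-voom 0 in each.

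PHF1 showed this most firmly. Its level was 56.5 and 38.4 CPM in the libraries labelled EXS34, 13.9 and 15.3 in those labelled KO, 11.7 and 9.72 in those labelled Compl, and 15.1 and 19.8 in those labelled EXS32. The libraries labelled EXS34 lay above the other 6. The log2 fold changes were 1.68 ± 0.20 against the libraries labelled KO (adjusted p = 0.00398), 2.11 ± 0.22 against those labelled Compl (adjusted p = 0.000595) and 1.42 ± 0.21 against those labelled EXS32 (adjusted p = 0.00994). The middle call held in all 18 other settings, the first in 17 and the last in 16. SEX4, a gene for a starch-related phosphatase 138 bases from PHF1 on the same strand, stood at 120.3 and 129 CPM in the libraries labelled EXS34, 111 and 109 in those labelled KO, 94.7 and 100.3 in those labelled Compl, and 141 and 138 in those labelled EXS32.

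PHT1;4, the main PHT1 transcript of leaves, stood at 63.4 and 41.7 CPM in the libraries labelled EXS34. It stood at 7.79 and 6.33 CPM in those labelled KO, 13.5 and 8.87 in those labelled Compl, and 9.09 and 20.5 in those labelled EXS32, so the groups labelled EXS34 and any other did not overlap. The gene was higher in the libraries labelled EXS34 than in those labelled KO (2.87 ± 0.44, adjusted p = 0.0235) and Compl (2.19 ± 0.43, adjusted p = 0.0236), and against those labelled EXS32 the value was 1.80 ± 0.42 (adjusted p = 0.0708). The calls were lost in 3 of 18 and 6 of 18 other settings, both without EXS34 replicate 1 (adjusted p = 0.0598 and 0.0747). In roots the gene ran from 20.3 to 48.96 CPM.

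PHT1;5 stood at 3.37 and 2.32 CPM in the libraries labelled EXS34 and at 0.290 to 0.936 CPM in the other 6 (log2 fold changes 1.77 ± 0.43, 1.86 ± 0.46 and 2.33 ± 0.48 against the libraries labelled KO, Compl and EXS32, adjusted p = 0.04, 0.0229 and 0.0256). These calls were lost in 8, 5 and 9 of 18 other settings, each without EXS34 replicate 1 (adjusted p from 0.102 to 0.146). PHT1;9 had 41 and 9 reads in the libraries labelled EXS34. It had 2, 4 and 1 reads in the groups labelled KO, Compl and EXS32, so its rates were 32.9, 11.7 and 48.2 times higher in the first group (exact 95% intervals from counting error 8.64 to 279, 4.30 to 44.7 and 8.26 to 1941). EdgeR called all 3 of these differences (adjusted p = 0.0189, 0.0228 and 0.0245), and each was lost without EXS34 replicate 1, the library with 41 reads (adjusted p from 0.0877 to 0.173). EdgeR did not call PHT1;1 in any leaf pair, while DESeq2 called it lower in the libraries labelled EXS32 than in those labelled KO and Compl (adjusted p = 0.0342 and 0.0364). It stood at 4.58 and 1.51 CPM in the libraries labelled EXS34, 5.22 and 1.66 in those labelled KO, 2.26 and 4.12 in those labelled Compl, and 0.773 and 0.624 in those labelled EXS32.

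The 5 members left out by the filter had few reads in leaves. PHT1;8 had 18 and 6 reads in the libraries labelled EXS34, 1 and 1 in those labelled Compl, and 0 in those labelled KO and EXS32. Its rate in the first group was 11.2 times that of the second (exact 95% interval 2.79 to 98.2) and at least 10.5 and 7.71 times higher than in the groups labelled KO and EXS32, with a floor of 3 reads over the group. PHT1;7 had 26 reads in the libraries labelled EXS34 against 1, 5 and 3 in those labelled KO, Compl and EXS32. With no filter, edgeR called AT1G20860 against all 3 groups (adjusted p = 0.0173, 0.0499 and 0.0299) and AT3G54700 against the libraries labelled KO (adjusted p = 0.0269). AT5G43370 had 11, 1, 1 and 4 reads in the groups labelled KO, Compl, EXS32 and EXS34, and AT5G43360 had 13, 5, 1 and 3.

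**Figure D5:**
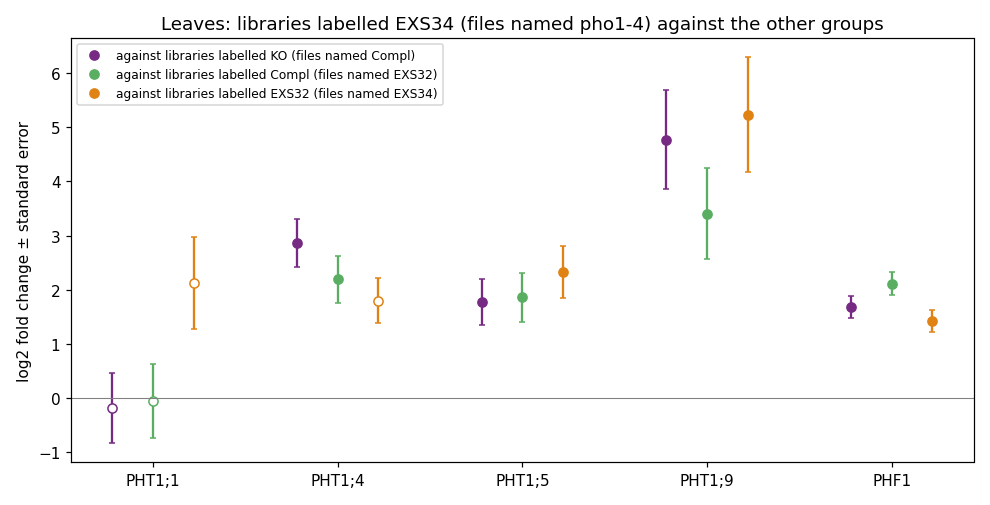
Log2 fold changes in leaves of the libraries labelled EXS34 (files named for pho1-4) against each other group, with standard errors, filled where the adjusted p was under 0.05, for the 5 members tested. PHT1;4, PHT1;5, PHT1;9 and PHF1 are above 0 against every group, and edgeR called PHT1;1 against none.

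The markers of phosphate starvation followed the same libraries. Of 15 markers the libraries labelled EXS34 were higher for 14 against those labelled KO, 13 against those labelled Compl and 14 against those labelled EXS32, and lower for 0, with medians of 4.26, 2.73 and 2.72 on the log2 scale against 0.02, 0.001 and 0.01 for all genes. Against the libraries labelled KO the lowest adjusted p were those of AT4, a noncoding RNA (4.599 ± 0.23), PHO1;H1 (3.16 ± 0.22), SQD1 (2.24 ± 0.17) and PPCK2, a kinase of carbon metabolism (4.04 ± 0.43). Of 14 genes of transcriptional control tested, 4, 6 and 6 were higher in these comparisons and 0 lower. SPX2, a phosphate sensor, was higher in all 3 (1.71 ± 0.20, 1.98 ± 0.20 and 1.59 ± 0.20), and SPX1 and SPX3 stand in both lists. WRKY75, a factor of the phosphate response, was 3.81 ± 0.51 higher than in the libraries labelled EXS32. Among turnover genes PHO2 was higher (0.88 ± 0.17, adjusted p = 0.0107) and NLA lower (-1.33 ± 0.18, adjusted p = 0.00159) than in the libraries labelled Compl. The libraries labelled KO differed from those labelled Compl in the same way (PHO2 0.99 ± 0.17, NLA -1.33 ± 0.17). With all leaf libraries in the fit, edgeR called 0 of the 5 members tested there. With only the groups compared in the fit, it called PHF1 higher in the libraries labelled KO (0.44, adjusted p = 0.0457). Whether PHO2 and NLA transcripts are tied to the levels of the members was not tested.

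Whether a genotype difference was itself unlike in roots and leaves was tested as an interaction in 1 fit of all 16 libraries, and here the naming of the leaf groups decides which libraries are compared. With leaf groups as their files are named, 5 of 54 tests on the members were called: 4 for KO against Compl (1.61% of 21351 genes called) and 1 for EXS32 against KO (2.55%). PHF1 had the lowest adjusted p of the members. Its interaction, the log2 difference in roots minus that in leaves, was -1.89 ± 0.24 for KO against Compl (adjusted p = 0.00524) and 1.90 ± 0.25 for EXS32 against KO (adjusted p = 0.00377). The other 3 calls were PHT1;8 (adjusted p = 0.00657), PHT1;9 (-5.54 ± 0.98, adjusted p = 0.0224) and PHT1;4 (-2.18 ± 0.46, adjusted p = 0.0425), all for KO against Compl. In each, KO minus Compl was lower in roots than in leaves: for AT1G20860, KO had fewer reads than Compl in roots (48 against 408), while in leaves the group with files named for pho1-4 had 24 reads and that with files named for the complemented line 0. The other 4 comparisons had 0 calls by edgeR, beside 0.0609% of genes for EXS34 against KO, 8.26% for EXS32 against Compl, 0.871% for EXS34 against Compl and 1.64% for EXS34 against EXS32.

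With leaf groups as labelled, 10 of 54 tests were called, all with the difference lower in roots than in leaves. They were 1 of 9 for EXS32 against Compl (16.3% of genes called, 7.62% lower), 4 for EXS34 against Compl (6.34%, 2.78% lower), 2 for EXS34 against EXS32 (6.78%, 2.88% lower) and 3 for EXS34 against KO (1.74%, 1.03% lower). KO against Compl (13.4%) and EXS32 against KO (1.55%) had 0 calls by edgeR, with 4 and 3 at an unadjusted p under 0.05, 1 and 0 by DESeq2 and 1 and 0 by limma-voom. PHF1 was called in each of the 4 comparisons with a call. No single test was called under both namings, and 33 of the 54 values differed in sign between them. The called values for EXS34 against Compl kept their sign under the file names but were smaller, and for PHF1 they were -2.27 and -0.39 ± 0.25. So did that of PHF1 for EXS34 against EXS32 (-1.16 and -0.40). PHT1;8 gave -5.62 and -2.25 for EXS34 against Compl, but under the file names both leaf groups had 0 reads of it. That second value is the root difference alone, so its sign says nothing of leaves. PHT1;9 gave -4.11 and -0.15 ± 3.24 there, so its sign under the file names is not settled. The other calls with leaf groups as labelled took the other sign, so their direction rests on the naming.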

How the data were processed

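Gene counts of 16 mRNA libraries were used as deposited: raw read counts for 32678 loci, followed by 5 lines without a gene name. Tools in the submitters' processing notes are TopHat2 2.0.9, cutadapt 1.2.1, limma, edgeR, R 3.1.1 and HTSeq 0.5.4p3, with TAIR10. How each was set, the strand option of the counting included, is not given in the sources used. The nameless lines, holding 8.57 to 10.26% of reads in roots and 7.26 to 7.77% in leaves, stayed out of library sizes and tests. Among them, reads aligned to several places made up 6.48 to 7.97% in roots and 5.76 to 6.27% in leaves.

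CPM is counts per total reads in genes, and RPKM divides it by the longest annotated transcript. Genotypes were compared with edgeR 4.0.16 in R 4.3.3 (filterByExpr with minimum count 10 and total 15, TMM, robust quasi-likelihood test, Benjamini-Hochberg adjustment over all genes, threshold 0.05), with the 8 libraries of an organ in 1 fit, and organs and interactions with all 16. The test was tested on simulated data. Standard errors are log2 fold changes over the square root of F. Between replicates chi-square divided by its degrees of freedom was 4.16 to 39.2, more than counting error gives, so each library counted as 1 replicate. Ratios of summed reads carry exact 95% intervals, which like the 3-read floors cover counting error alone.

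The members and gene lists were chosen with earlier results of these data known. The genes named are the 10 members, PHO1, up to 4 genes per list and comparison with the lowest adjusted p, the 3 genes most alike each member called in roots (Pearson's r of log2(CPM + 1)) and the annotated neighbours of called members. PHO2, NLA and PHR1 were also named for their known roles, and SPX2 and CKB3 follow the list rule. Alternatives were DESeq2 1.42.0 and its size factors, limma-voom (limma 3.58.1), library size alone, no filter, other sets of libraries in the fit, the replicate number as a block, each library left out, summed near-identical copies, mean transcript length, and leaf groups by file name. Ratios of summed reads between organs without leaf EXS34 replicate 1 were added after seeing the data. Locus symbols matched for 31912 loci in RefSeq TAIR10.1. Figures were drawn with matplotlib 3.10.9.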

Additional observations from a re-analysis of the deposited data

Results flagged for a closer look

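With leaf groups as labelled, 10 genotype differences of the members were unlike in roots and leaves by edgeR's interaction test over all 16 libraries, each given as the log2 difference in roots minus that in leaves. For PHF1 the values were -1.109 for EXS32 against Compl (adjusted p = 0.0122), -2.27 for EXS34 against Compl (adjusted p = 0.00107), -1.16 for EXS34 against EXS32 (adjusted p = 0.0168) and -1.61 for EXS34 against KO (adjusted p = 0.0065). For PHT1;9 they were -4.11 for EXS34 against Compl (adjusted p = 0.0207), -5.51 for EXS34 against EXS32 (adjusted p = 0.0161) and -4.85 for EXS34 against KO (adjusted p = 0.0333), and the leaf groups other than EXS34 held 1 to 4 reads of this gene. PHT1;4 gave -2.69 for EXS34 against KO (adjusted p = 0.0147). For EXS34 against Compl, PHT1;8 gave -5.62 (adjusted p = 0.0126) and PHT1;5 -3.52 (adjusted p = 0.0473), the latter lost in 16 of 23 other settings. None of these 10 was called when leaf groups followed their file names. Under the file names 5 others were: PHF1 at -1.89 (adjusted p = 0.00524), PHT1;8 at -11.3 (adjusted p = 0.00657, with 0 reads in 1 leaf group), PHT1;9 at -5.54 (adjusted p = 0.0224) and PHT1;4 at -2.18 (adjusted p = 0.0425) for KO against Compl, and PHF1 at 1.90 for EXS32 against KO (adjusted p = 0.00377). Which naming is right cannot be told from the labels alone.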

How the results depend on the processing

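Calls of members between genotypes in roots numbered 5, with 11 by DESeq2, 2 when only the groups compared were fitted, and 0 to 4 when 1 library was left out: 0 without either EXS32 library, 2 without either KO library, 3 without Compl replicate 1 or either EXS34 library, and 4 without Compl replicate 2. Calls in leaves numbered 11, and 4 to 16 with 1 library left out, with 4 without EXS34 replicate 1 or KO replicate 1, 5 without either Compl library, 6 without KO replicate 2 and 16 without EXS34 replicate 2. Calls between roots and leaves numbered 8, and 7 to 8 with 1 library left out. Interaction calls numbered 10, and 4 to 11 with 1 library left out: 4 without leaf EXS34 replicate 1, and 6 and 5 without leaf Compl replicates 1 and 2. Leaf groups in these counts are named by their labels. A leaf fit with 1 library left out has a group of 1, so its filter asks for 1 library alone. PHT1;7 and PHT1;8 reached the level of the leaf filter (0.8805 CPM) in the library labelled EXS34 replicate 1 alone. The 16 calls therefore include members that were not tested among the 11, let in by the library where they were high. The cause of the other changes was not tested, beyond the fewer libraries in such fits.

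With leaf groups as their files are named, interaction calls numbered 5, and 33 of 54 values took the other sign, 9 of them called under either naming. PHF1 gave 0.00896 for EXS32 against Compl, 1.90 for EXS32 against KO and 1.495 for EXS34 against KO. PHT1;9 gave 1.81 for EXS34 against EXS32, 5.39 for EXS34 against KO and -5.54 for KO against Compl. PHT1;4 gave 1.99 for EXS34 against KO and -2.18 for KO against Compl, and PHT1;8 -11.3 for KO against Compl, where 1 leaf group had 0 reads. The alternative regroups the same libraries.

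The replicate number as a block gave 5 calls in roots, 10 in leaves, 8 between organs and 10 interactions. By edgeR it lost PHF1 for EXS32 against Compl in roots (adjusted p = 0.0523) and 1 call of PHT1;4 in leaves (adjusted p = 0.0507). The latter compared the libraries labelled EXS34 (files named for pho1-4) with those labelled Compl (files named EXS32). Same-numbered libraries of different groups had correlations of their deviations from -0.251 to 0.219 in roots and 0.036 to 0.335 in leaves, not all above 0.1 in either organ, so the numbers were not taken to pair the libraries. Of 2899 tests of single members under other settings, 2587 had the same sign and side of the threshold, 146 lost and 42 gained a call with the same sign, 108 differed in sign (9 called in either setting) and 16 had no adjusted p from DESeq2. Few reads limit PHT1;5 to PHT1;9 in leaves.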
